A study of Mus musculus with 18 samples.

Results

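Interferon beta, its receptor, the receptor for interferon gamma and the kinases that both receptors use were followed in mouse macrophages with and without Wbp7. The 7 genes were chosen by name: Ifnb1, which encodes interferon beta, Ifnar1 and Ifnar2, which encode the chains of the type I interferon receptor, Ifngr1 and Ifngr2, which encode those of the interferon gamma receptor, and the kinase genes Jak1 and Tyk2. Each had 1 probe set assigned to it alone, and together they were 7 of the 19475 genes measured this way. The choice was made with the KO and HET values of Ifnb1 on these arrays known, so its values and differences are given as a description with no test. The other 6 genes were tested within a fit to all genes.

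The cells were bone marrow-derived macrophages, grown with medium conditioned by L929 cells (a fibroblast line that secretes the macrophage growth factor Csf1) and taken on day 7 of differentiation. The KO cells were Wbp7-/- and the HET cells, which served as controls, were Wbp7+/-. There were no wild-type cells, and both genotypes lacked at least 1 working copy of the gene. Wbp7, which is also called Kmt2b, codes for an enzyme that methylates histone H3 at lysine 4. The sources used here do not say how the allele was removed, or in which cells. The mice had a mixed background of C57BL/6 (94%) and 129/Ola (6%). Lipopolysaccharide (LPS, 10 ug/ml), a bacterial product sensed through Tlr4, was given for 2 h or 4 h, and other cells of both genotypes stayed untreated. Each of the 6 groups (KO and HET at each of the 3 times) had 3 Affymetrix arrays, numbered as replicates 1 to 3, 18 in all.

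Interferon beta is the type I interferon that macrophages secrete after LPS. Tlr4 signals through the adaptors Ticam1 and Ticam2 to the kinase Tbk1, which activates Irf3, and Irf3 acts with NF-kB at the Ifnb1 promoter. Secreted interferon beta binds Ifnar1 and Ifnar2 on the same and neighbouring cells, where Tyk2 and Jak1 start the signal to the nucleus. The interferon gamma receptor, built of Ifngr1 and Ifngr2, uses Jak1 and Jak2. Interferon gamma itself comes mainly from T and NK cells.

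Ifnb1 and Jak1 lie on chromosome 4, Ifngr1 on chromosome 10 and Tyk2 on chromosome 9. Ifnar2, Il10rb, Ifnar1 and Ifngr2 follow each other on chromosome 16 in that order. The promoter stretch below is shown because Ifnb1 was the member that differed most between genotypes, and it holds the sites through which LPS signalling is known to reach the gene. It is from RefSeq (GRCm38.p6, chr4:88522845-88522944, minus strand) and covers 150 to 51 bases before the annotated start. Capitals mark, from left to right, a pair of IRF cores (AANNGAAA), an NF-kB core (GGGANNTTC) and a TATA box (TATAAA).
Ifnb1: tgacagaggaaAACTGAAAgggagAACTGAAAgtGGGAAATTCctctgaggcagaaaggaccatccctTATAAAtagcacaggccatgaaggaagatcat

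The IRF cores lay at -139 to -132 and -126 to -119, the NF-kB core at -116 to -108 and the TATA box at -82 to -77. These positions are counted from the annotated start, and where transcription begins was not measured. Both strands of the window reaching from 250 bases before to 50 bases after each annotated start were searched. The Ifnb1 window held a further IRF core at -159 to -152 and a further TATAAA at -210 to -205. The IRF core was added to the search after the sequences had been seen. Of 32851 promoter windows of this length, 3.94% held the NF-kB core, 23.9% the IRF core and 13.6% TATAAA. The longer IRF site GAAANNGAA (8.56% of windows) and the ATF and AP-1 site TGACATAG (0.624%) had no exact match in the Ifnb1 window. The stretch shown above opens with TGACAGAG, which differs from TGACATAG at 1 base. The search for exact letters therefore does not show that the window lacks an ATF and AP-1 site. Of the other 6 members, Ifnar1 and Ifnar2 had 1 match each to the STAT site TTCNNNGAA (8.3% of windows), at -5 to 4 and -214 to -206. Ifngr2 had 1 match to the NF-kB core, on the opposite strand at -74 to -66. The windows of Ifngr1, Jak1 and Tyk2 had no match to any of these letters. No methylation or binding was measured here, so these matches are a description of the sequence.

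The labels and arrays were checked first. The probe set of Wbp7 (named Kmt2b in the platform table, 10562005) gave 10.35, 10.41 and 10.47 on the log2 scale in untreated KO arrays, against 10.97, 10.49 and 10.51 in untreated HET arrays. KO and HET differed by -0.24 (SE 0.156) in untreated cells, by -0.06 at 2 h and by -0.09 at 4 h, none of them called. The sources used here do not give the part of the transcript that this probe set reads, so this level does not check the genotype. Of 10 macrophage markers, 9 lay above the upper quartile of signal on every array, with Mertk the exception. Of 8 markers of T and NK cells, 7 lay below the median of signal on every array, as did 3 of 4 for B cells, 3 of 5 for dendritic cells and 2 of 5 for plasmacytoid dendritic cells. The T and NK cell exception was Klrk1, an activating receptor, which lay between 5.17 and 8.60. It rose with LPS by 1.09 in KO cells and 2.74 in HET cells at 4 h and was lower in KO cells by then (-1.71, adjusted p 0.00638). The mean of the neutrophil list lay between 8.37 and 9.08 on KO arrays and between 7.89 and 9.03 on HET arrays. That of the stromal list lay between 7.75 and 8.69 on KO arrays and between 7.91 and 8.74 on HET arrays. Only 1 of 8 neutrophil markers and 1 of 6 stromal markers lay below the median of signal on every array. KO minus HET, the neutrophil markers ranged from -0.22 to 1.22 in untreated cells. The range was -0.56 to 1.15 at 2 h and -0.45 to 1.08 at 4 h, with none called. The part of other cell types in the results was not tested. These are bulk samples, in which fewer cells of a type and less RNA per cell cannot be told apart.

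The 3 HET arrays numbered replicate 1 stood apart from the other HET arrays. The SD of the difference across genes was 0.435 to 0.531 in the 6 pairs of arrays of a group that included one of them, and 0.175 to 0.279 in the other 12 pairs. The median of 17 measured cell cycle genes differed there by -3.30 log2 units in untreated cells, by -3.20 at 2 h and by -2.55 at 4 h. The median of the 8 neutrophil markers was higher there by 0.39, 0.60 and 0.50 at these times, and Ifnb1 was higher by 0.37 and 1.08 in untreated cells and at 2 h and differed by -0.40 at 4 h. The part of either list in the results was not tested. Results that rest on these arrays are given with and without them. The labels do not say that the arrays came from separate animals or cultures, so p-values measure the spread between arrays, which may be technical. The number of arrays limits the precision.

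Differences below are on the log2 scale, with the standard error (SE) from the limma fit of all 18 arrays and n = 3 arrays per group. A gene was called, and is said to have risen or fallen, where its p, adjusted by the Benjamini-Hochberg method over all 19475 genes, was under 0.05. Signal on an array is compared for the same probe set between arrays, and not between genes.

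Ifnb1 had low signal in untreated macrophages of both genotypes, and after 2 h of LPS its signal was far lower in KO cells than in HET cells. On untreated arrays it gave 6.28, 6.15 and 6.23 in KO cells, against 6.45, 6.04 and 6.13 in HET cells. The genotypes overlapped, and on every one of these 6 arrays the probe set lay between the 12.6th and the 16.8th percentile of signal. At 2 h of LPS it gave 7.08, 6.89 and 6.65 in KO cells, against 9.81, 8.78 and 8.68 in HET cells. Every KO array was below every HET array at this time, and the highest value of all 18 was the HET array numbered 1. At 4 h Ifnb1 gave 7.48, 6.60 and 6.83 in KO cells, against 7.38, 7.94 and 7.61 in HET cells. The genotypes overlapped again, with the KO array numbered 1 above the HET array numbered 1.

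**Figure D1:**
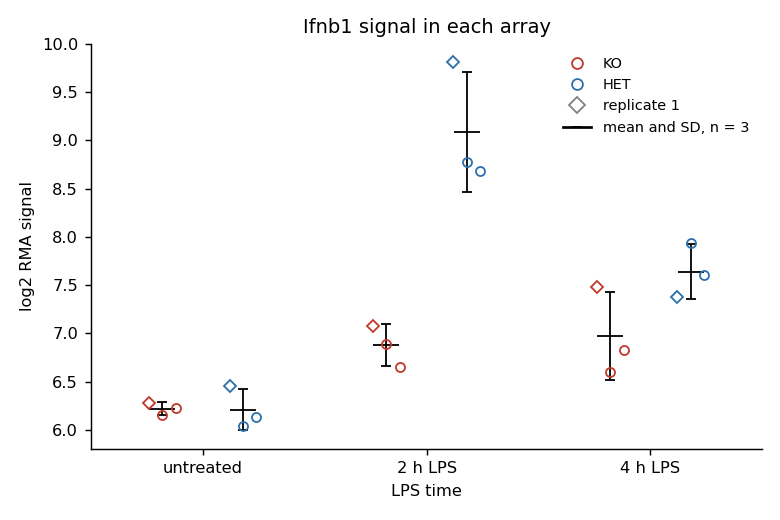
Log2 RMA signal of Ifnb1 (vertical axis) in each of 18 arrays by LPS time, with KO left of HET, diamonds for arrays numbered 1, and black bars for the mean and SD of 3 arrays. The 3 HET arrays at 2 h lie between 8.68 and 9.81, above the KO arrays at 6.65 to 7.08.

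The KO mean at 2 h was 6.88 ± 0.214 and the HET mean 9.09 ± 0.625 (SD, n = 3 each). The difference was -2.21 (SE 0.267). Without the 3 HET arrays numbered 1 it was -1.85 (SE 0.202). In untreated cells KO and HET differed by 0.01, and by 0.13 without those arrays. At 4 h the KO mean was 6.97 ± 0.458 and the HET mean 7.64 ± 0.284 (SD, n = 3 each), a difference of -0.67 (SE 0.267), or -0.80 without the HET arrays numbered 1. The untreated signal lay below the lower quartile of every array (6.71 to 6.99), and the KO signal at 2 h lay around it, between the 21.5th and the 28.9th percentile. Background makes up much of a probe set's signal there, so these differences are uncertain and may understate the change.

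Set against untreated cells of the same genotype, Ifnb1 was higher by 0.66 in KO cells and by 2.88 in HET cells at 2 h. By 4 h it was higher by 0.75 in KO cells and by 1.43 in HET cells. From 2 h to 4 h the KO mean was thus 0.10 higher, and the HET mean 1.44 lower. Between arrays of the same number, the 2 h response was 0.80, 0.75 and 0.42 in KO cells, against 3.35, 2.73 and 2.55 in HET cells. At 4 h it was 1.20, 0.45 and 0.60 in KO cells, against 0.92, 1.90 and 1.47 in HET cells. The response was smaller in KO than in HET cells by 2.22 at 2 h (difference -2.22, SE 0.378) and by 0.68 at 4 h (difference -0.68). Without the HET arrays numbered 1 these differences were -1.98 and -0.93. The KO response at 4 h was 0.50 without the KO array numbered 1 at that time.

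In the order of group means, Ifnb1 was lowest in untreated HET cells and then in untreated KO cells, 0.01 apart with overlapping arrays. Next came KO at 2 h and KO at 4 h, whose arrays also overlapped, then HET at 4 h, which overlapped with KO at 4 h, and HET at 2 h, which overlapped with no other group. The range of its group means was 2.88, from values that were known when the gene was chosen.

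The type I interferon receptor genes had high signal in every group and did not pass the test between genotypes. Ifnar1, the chain that Tyk2 binds, gave 12.24, 12.06 and 12.19 in untreated KO cells, against 12.55, 12.33 and 12.002 in untreated HET cells. At 2 h it gave 12.45, 12.47 and 12.49 in KO cells, against 12.66, 12.42 and 12.46 in HET cells. At 4 h it gave 12.35, 12.52 and 12.68 in KO cells, against 13.15, 12.44 and 12.55 in HET cells. The genotypes overlapped at every time, and the highest Ifnar1 value of each time was the HET array numbered 1. Ifnar2, the chain that Jak1 binds and that holds most of the affinity for interferon beta, gave 12.71, 12.49 and 12.71 in untreated KO cells, against 12.73, 12.72 and 12.51 in untreated HET cells. At 2 h it gave 12.73, 12.65 and 12.70 in KO cells, against 13.10, 12.77 and 12.78 in HET cells. At 4 h it gave 12.68, 12.69 and 12.82 in KO cells, against 13.31, 12.71 and 12.77 in HET cells. Only at 2 h did the arrays of the genotypes not overlap, by a gap smaller than the spread within either group, and Ifnar2 was not called there.

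Ifngr1, the ligand-binding chain of the interferon gamma receptor, moved with LPS time in both directions. In untreated cells it gave 12.12, 12.20 and 12.26 in KO cells, against 12.27, 12.20 and 12.24 in HET cells. At 2 h it gave 12.68, 12.44 and 12.76 in KO cells, against 12.66, 12.64 and 12.44 in HET cells. By 4 h it gave 12.001, 11.98 and 11.99 in KO cells, against 11.36, 11.64 and 11.43 in HET cells. Every 4 h array of a genotype lay below every untreated array of it, and at 4 h every KO array was above every HET array. Ifngr2, the second chain, which Jak2 binds, varied less. It gave 13.15, 13.26 and 13.14 in untreated KO cells, against 13.49, 13.19 and 13.36 in untreated HET cells. At 2 h it gave 13.42, 13.30 and 13.50 in KO cells, against 13.52, 13.35 and 13.37 in HET cells. The 4 h values were 13.51, 13.37 and 13.42 in KO cells, against 13.62, 13.56 and 13.41 in HET cells. The genotypes overlapped at all 3 times.

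The kinase genes differed from each other in their response. Tyk2, the kinase of the type I receptor, gave 10.19, 9.95 and 10.32 in untreated KO cells, against 10.45, 10.43 and 10.07 in untreated HET cells. At 2 h it gave 11.13, 10.37 and 11.15 in KO cells, against 11.27, 11.15 and 10.74 in HET cells. The 4 h values were 11.69, 11.08 and 11.72 in KO cells, against 11.59, 11.89 and 11.54 in HET cells. All LPS arrays of either genotype were above its untreated arrays, and KO and HET overlapped at each time, with the KO array numbered 2 the lowest KO array throughout. Jak1, which serves both receptors, gave 12.29, 12.30 and 12.35 in untreated KO cells, against 12.43, 12.35 and 12.33 in untreated HET cells. At 2 h it gave 12.44, 12.42 and 12.34 in KO cells, against 12.50, 12.37 and 12.44 in HET cells. At 4 h it gave 12.26, 12.41 and 12.42 in KO cells, against 12.96, 12.28 and 12.43 in HET cells. Apart from the HET array numbered 1 at 4 h, all Jak1 values lay within 12.26 to 12.50.

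**Figure D2:**
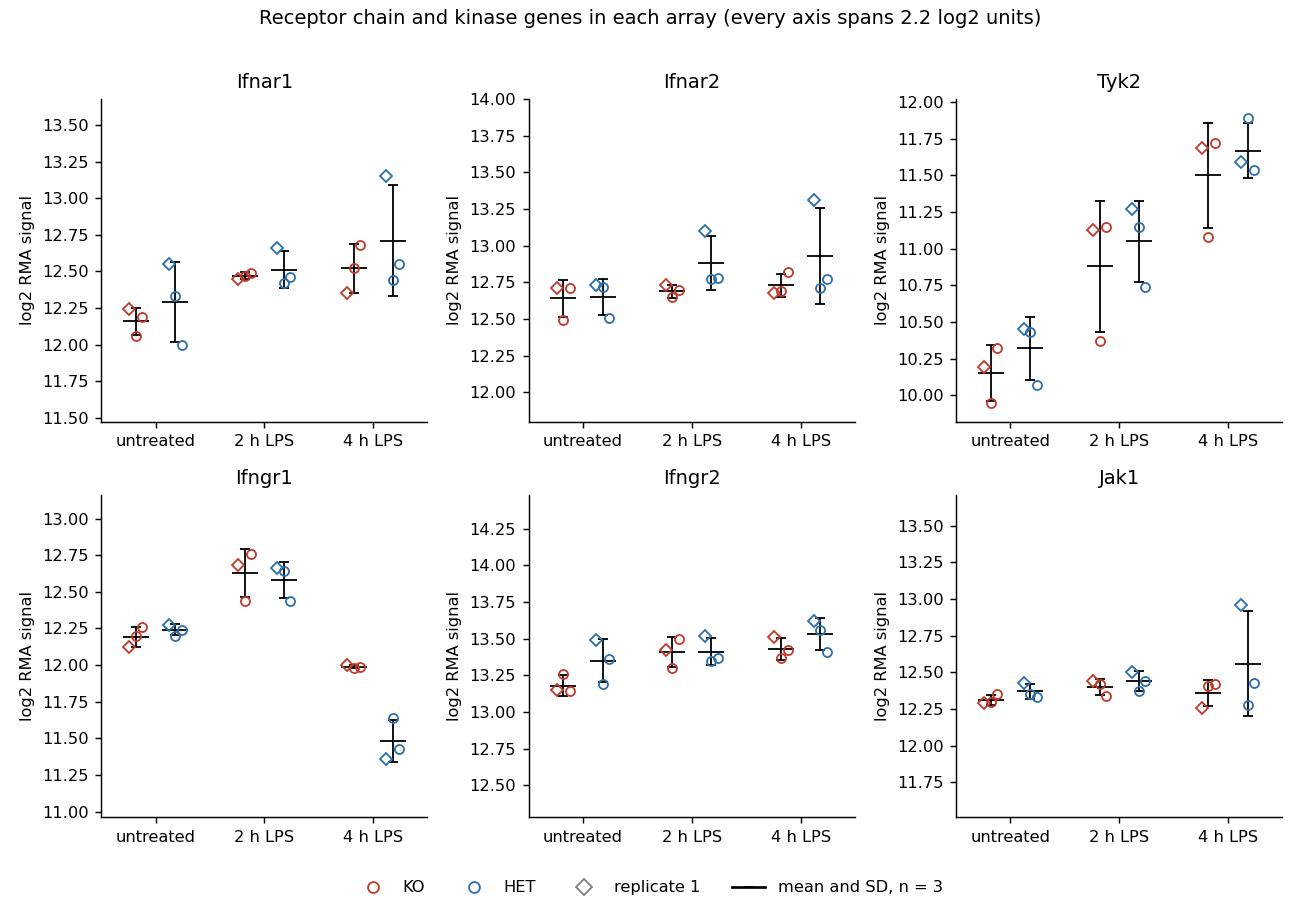
Log2 RMA signal (vertical axes, all of equal span) of the 6 receptor and kinase genes in each array by LPS time, with KO left of HET, diamonds for arrays numbered 1, and black bars for the mean and SD of 3 arrays. Tyk2 is higher after LPS in both genotypes. Ifngr1 is higher at 2 h and lower at 4 h, when it lies at 11.36 to 11.64 in HET and at 11.98 to 12.001 in KO cells. Its 4 h response in KO cells (-0.20) was not called, nor was the difference in response between genotypes without the replicate block.

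Between genotypes, none of the 6 receptor and kinase genes was called in untreated cells, where 0.416% of all genes were called, and none at 2 h, where 2.76% were. Their KO minus HET differences lay between -0.16 and -0.01 in untreated cells and between -0.19 and 0.05 at 2 h (adjusted p 0.593 to 0.989 at 2 h). The 95% intervals of the differences at 2 h, not adjusted for the number of genes, were -0.39 to 0.30 for Ifnar1, -0.48 to 0.10 for Ifnar2, -0.15 to 0.25 for Ifngr1, -0.20 to 0.19 for Ifngr2, -0.30 to 0.23 for Jak1 and -0.64 to 0.30 for Tyk2. For the receptor chains, these intervals leave room for KO signal up to 1.40-fold lower (Ifnar2) and up to 1.23-fold higher (Ifnar1). For Tyk2 they reach from 1.56-fold lower to 1.23-fold higher.

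At 4 h, 1 of the 6 was called, where 2.42% of all genes were. Ifngr1 had a mean of 11.99 ± 0.0106 in KO cells and 11.48 ± 0.145 in HET cells (SD, n = 3 each), a difference of 0.51 (SE 0.0949, limma adjusted p 0.0101, higher in 3 of 3 KO arrays than in any HET array). The call held without the 3 HET arrays numbered 1 (0.46, adjusted p 0.022). It was lost when only the HET array numbered 1 at 4 h was left out (0.46, adjusted p 0.0512), when the KO array numbered 2 at 4 h was left out (0.52, adjusted p 0.0566) and when only the 6 arrays at 4 h were fitted (adjusted p 0.121). The other 5 lay between -0.20 and -0.10 (adjusted p 0.367 to 0.615). Ifnar1 and Jak1 differed by -0.19 each at 4 h, and by 0.03 and 0.01 without the HET arrays numbered 1.

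The LPS responses share their untreated arrays between 2 h and 4 h. Within a genotype, the departures of same-numbered arrays from their group means correlated across genes (r 0.32 to 0.796), so a fit with the replicate number as a block within genotype is given where it changes a call. In KO cells at 2 h, 1 of the 6 genes was called, where 3.35% of all genes were, and 2 with the block, where 7.3% were. Ifngr1 rose by 0.44 (SE 0.0949, adjusted p 0.0149). Its adjusted p was 0.0765 without the untreated KO array numbered 1, 0.0794 without the 2 h KO array numbered 1, 0.0544 without the untreated KO array numbered 2 and 0.096 without the 2 h KO array numbered 3. Tyk2 was higher by 0.73 (adjusted p 0.11, and 0.00438 with the block). Without the 2 h KO array numbered 2, its lowest after LPS, Tyk2 rose by 0.98 (adjusted p 0.0155).

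In HET cells at 2 h, 2 of the 6 genes were called, and 15.6% of all genes (25.6% with the block). Ifngr1 rose by 0.34 (adjusted p 0.0222) and Tyk2 by 0.73 (adjusted p 0.0341). Both were also called with the block, and neither without the 3 HET arrays numbered 1 (adjusted p 0.0796 for Ifngr1 and 0.126 for Tyk2). Leaving out the HET array numbered 1 or 2 at 2 h, or the untreated HET array numbered 2 or 3, also ended both calls, at adjusted p 0.0573 to 0.0998 for Ifngr1 and 0.059 to 0.151 for Tyk2.

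At 4 h, Tyk2 rose in both genotypes to a like extent. In KO cells it was the 1 gene of the 6 called, where 15.8% of all genes were, with a rise of 1.34 (SE 0.221, adjusted p 0.000489). The block added Ifnar1, higher by 0.36 (adjusted p 0.178, and 0.0394 with the block), and Ifngr2, higher by 0.25 (adjusted p 0.0842, and 0.0216 with the block), where 26% of all genes were called. Both also passed without the 3 HET arrays numbered 1, which enter that fit only through the shared spread (adjusted p 0.0145 for Ifnar1 and 0.0292 for Ifngr2). In HET cells 2 of the 6 were called, where 36.4% of all genes were. Tyk2 rose by 1.36 (adjusted p 0.000205), and Ifngr1 fell by 0.76 (SE 0.0949, adjusted p 1.77e-05), each of them called under every alternative tried. With the block 5 of 6 were called, where 53.7% of all genes were, adding Ifnar1 (higher by 0.42, adjusted p 0.0575, and 0.00908 with the block), Ifnar2 (higher by 0.28, adjusted p 0.125, and 0.0321 with the block) and Ifngr2 (higher by 0.18, adjusted p 0.124, and 0.0494 with the block). Ifnar1 was called in HET cells without the block when the untreated array numbered 1 (0.54, adjusted p 0.0249) or the 4 h array numbered 2 (0.55, adjusted p 0.0226) or 3 (0.50, adjusted p 0.0443) was left out, and without all 3 HET arrays numbered 1 (0.33, adjusted p 0.0493). Leaving out the 4 h HET array numbered 2 also brought Jak1 past the threshold (0.32, adjusted p 0.0488), and its value was -0.02 without the 4 h HET array numbered 1.

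The difference between genotypes in the LPS response was tested on its own. None of the 6 genes was called at 2 h, where 0% of all genes were called by limma, nor with the block, where 0.18% were. At 2 h without the block, 1099 of the 19475 genes had an unadjusted limma p under 0.05. At 4 h none was called, where 0.0513% of all genes were. With the block 1 was called, where 0.503% were. This was Ifngr1, whose value was -0.20 in KO cells (adjusted p 0.191) and which fell by 0.76 in HET cells, a difference in response of 0.56 (SE 0.134, adjusted p 0.301, and 0.0454 with the block). For Tyk2 the differences in response were -0.01 at both times, with unadjusted 95% intervals of -0.67 to 0.66 at 2 h and -0.68 to 0.65 at 4 h.

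**Figure D3:**
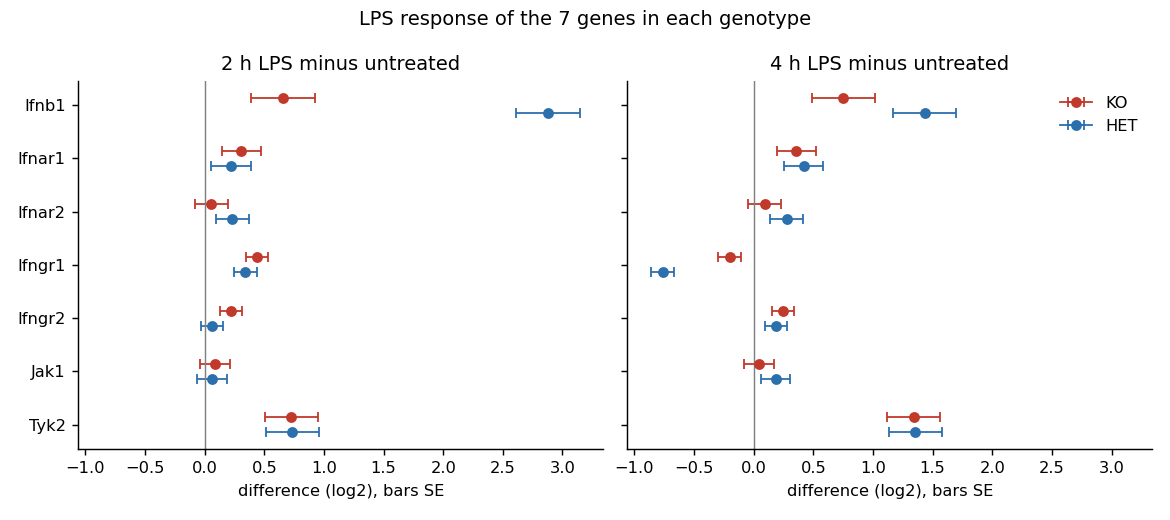
LPS response (log2 signal minus untreated, horizontal axes) of the 7 genes at 2 h and 4 h in KO cells (red, upper point of each pair) and HET cells (blue, lower point), with bars for the SE of the limma fit. For Ifnb1 at 2 h the values are 0.66 in KO and 2.88 in HET cells, while those of Tyk2 are 0.73 in both.

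Genes that feed the Ifnb1 promoter were described from a list of 23, of which 20 were measured by a probe set of their own. At 2 h, 4 of the 20 were called between genotypes, all lower in KO cells, where 2.76% of all genes were called, and the median difference was -0.26, against 0.00 over all genes. Tlr3, the endosomal receptor for double-stranded RNA, had a mean of 8.154 ± 0.189 in KO cells and 10.52 ± 0.37 in HET cells (SD, n = 3 each) and fell by 2.37 (adjusted p 4.4e-05). Ifih1 and Ddx58, which encode the cytoplasmic RNA sensors MDA5 and RIG-I, fell by 1.53 (adjusted p 0.00236) and fell by 1.06 (adjusted p 0.0317), in that order. Azi2, an adaptor of Tbk1, fell by 0.61 (adjusted p 0.0372). Irf7, which amplifies type I interferon production, had a difference of -1.23 (adjusted p 0.081), and Ikbke, a kinase related to Tbk1, one of -0.47 (adjusted p 0.302). Tlr4, Ticam1, Ticam2, Tbk1 and Irf3, which make up the route from LPS described above, were also measured and not called at 2 h. Genes that were not called may still differ. The route as described does not include Tlr3, Ifih1 or Ddx58, and the part of any of these genes in the level of Ifnb1 was not tested. Traf3, Nfkb1 and Hmga1 of the list had no probe set of their own. The count of 4 was 3 without the HET arrays numbered 1, and 2 without the 2 h HET array numbered 1 or 3 or the 2 h KO array numbered 1 or 2. Tlr3 was the only one of the 20 called in untreated cells (-1.41, adjusted p 0.00453), where 0.416% of all genes were, and at 4 h (-1.38, adjusted p 0.00287), where 2.42% were. In untreated cells the count was 0 when only the 6 untreated arrays were fitted, and 2 without the untreated HET array numbered 2. Over the list, the medians were -0.09 in untreated cells and -0.23 at 4 h, against -0.02 and -0.06 over all genes.

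After LPS, Ikbke rose by 1.95 in KO cells and 1.72 in HET cells at 2 h, and Ifih1 rose by 1.21 in KO cells and 2.11 in HET cells. Jun, a component of AP-1, fell by 1.44 in KO cells and fell by 1.71 in HET cells at 2 h, and Tlr4, the LPS receptor, fell by 1.12 in KO cells and fell by 1.205 in HET cells. At 4 h, 10 of the 20 had risen and 2 had fallen in KO cells, and 10 had risen and 3 had fallen in HET cells, where 15.8% of all genes were called in KO cells and 36.4% in HET cells. Irf7 rose by 2.69 in KO cells and 1.71 in HET cells by that time, and Tlr3 by 2.51 in KO cells and 2.47 in HET cells. No gene of this list was called for the difference in response at either time.

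Downstream of the receptors, 18 of 20 listed signalling genes were measured. At 2 h, 2 of the 18 were called between genotypes, both lower in KO cells, where 2.76% of all genes were called. The median was -0.46, against 0.00 over all genes. Socs1, an inhibitor that binds Jak kinases, had a mean of 10.13 ± 0.394 in KO cells and 11.75 ± 0.643 in HET cells (SD, n = 3 each) and fell by 1.62 (adjusted p 0.00588). Cish, an inhibitor of Stat5 signalling, fell by 1.45 (adjusted p 0.0233). Usp18, which blocks signalling at Ifnar2, had a difference of -1.11 (adjusted p 0.0863), and Stat5a one of -0.93 (adjusted p 0.227). The count was 1 without the HET arrays numbered 1, 1 without the 2 h HET or KO array numbered 1 or the 2 h KO array numbered 2, and 6 without the 2 h HET array numbered 2. None was called in untreated cells (median -0.08) or at 4 h (median -0.31), where Stat5a differed by -1.01 (adjusted p 0.149) and Socs1 by -0.87 (adjusted p 0.0961). At 4 h the count was 3 without the HET arrays numbered 1, and 3 without the 4 h HET array numbered 3 alone.

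After LPS, 5 of the 18 had risen in KO cells and 9 in HET cells at 2 h, where 3.35% of all genes were called in KO cells and 15.6% in HET cells. Socs3, an inhibitor of signalling through gp130 receptors, rose by 4.17 in KO cells and 4.62 in HET cells at 2 h. Cish rose by 2.45 in KO cells and 3.81 in HET cells, and Socs1 by 1.68 in KO cells and 3.01 in HET cells. Jak2, the partner of Jak1 at the interferon gamma receptor, rose by 1.34 in KO cells and 2.08 in HET cells. At 4 h Socs1 had risen by 3.12 in KO cells and 3.69 in HET cells. The differences between genotypes in these responses did not pass the test, with -1.36 for Cish (adjusted p 0.618) and -1.32 for Socs1 (adjusted p 0.52) at 2 h.

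Of 26 other interferons and related receptor genes, 21 were measured, and none was called between genotypes at any time, nor under any alternative tried at 2 h and 4 h. The medians were -0.01 in untreated cells, -0.06 at 2 h and -0.14 at 4 h. The largest difference was that of Il10ra, a chain of the interleukin 10 receptor, at -0.69 at 2 h (adjusted p 0.161). The interferon alpha gene Ifna2 differed by -0.29 at 2 h (adjusted p 0.329). Ifng, which encodes interferon gamma, averaged 7.626 ± 0.256 in KO cells and 7.515 ± 0.0304 in HET cells at 2 h (SD, n = 3 each). After 4 h of LPS, Il10ra had risen by 1.17 in KO cells and 1.45 in HET cells, and Il20rb, a receptor chain for the interleukin 20 family, by 0.77 in both. Ifna12 rose by 0.54 in HET cells (adjusted p 0.0146) and was higher by 0.41 in KO cells (adjusted p 0.0946).

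Genes that type I interferon is known to induce were lower in KO cells at 2 h. Of 30 listed, 28 were measured (among them Usp18 and Irf7, which also stand in the lists above), and 16 of them fell in KO relative to HET cells at 2 h, where 2.76% of all genes were called. The median of the list was -1.08, against 0.00 over all genes. None of the 28 was called in untreated cells, although all 28 lay below 0 there (median -0.88), nor at 4 h (median -0.33, again all below 0). In untreated cells 3 were called with array weights and 1 with the replicate block. Ifit2, which inhibits translation of viral RNA, fell by 1.95 (adjusted p 0.0258) at 2 h. Mx1, an antiviral GTPase, fell by 1.91 (adjusted p 0.0307), Isg20, an exonuclease, fell by 1.78 (adjusted p 0.0153), and Oasl1, a member of the oligoadenylate synthetase family, fell by 1.75 (adjusted p 0.00565). Ifit3 had a difference of -1.81 (adjusted p 0.0829). The list stood higher on the HET arrays numbered 1 than on the other HET arrays, by a median of 0.67 in untreated cells, 0.61 at 2 h and 0.24 at 4 h. Without these arrays the count at 2 h was 9 and the median -0.92, and the medians in untreated cells and at 4 h were -0.67 and -0.24. The count was 2 without the 2 h HET array numbered 1, 5 without that numbered 3, 3 without the 2 h KO array numbered 1, 2 without that numbered 2, and 1 when only the 6 arrays at 2 h were fitted.

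All 28 rose with LPS by 4 h in both genotypes, where 15.8% of all genes were called in KO cells and 36.4% in HET cells. The median of the list was 2.67 in KO cells and 1.89 in HET cells, against 0.02 in KO cells and 0.09 in HET cells over all genes. At 2 h, 13 of the 28 had risen in KO cells (median 0.97) and 18 in HET cells (median 1.36), where 3.35% of all genes were called in KO cells and 15.6% in HET cells. Mx2, another antiviral GTPase, rose by 3.14 in KO cells and 3.91 in HET cells at 2 h, and Mx1 by 2.43 in KO cells and 3.08 in HET cells. At 4 h Ifit2 had risen by 4.55 in KO cells and 3.33 in HET cells. The difference in response was not called for any of the 28 at either time. It was above 0 for all 28 at 4 h (median 0.60) and below 0 for 21 at 2 h (median -0.19).

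Of 17 genes that interferon gamma is known to induce, 15 were measured, and 8 of them fell in KO relative to HET cells at 2 h, where 2.76% of all genes were called. The median was -0.90, against 0.00 over all genes. Iigp1, an immunity-related GTPase, averaged 6.911 ± 0.412 in KO cells and 10.28 ± 1.41 in HET cells (SD, n = 3 each) and fell by 3.37 (adjusted p 0.00427). The KO mean lay around the lower quartile of the arrays, where the size of a difference is uncertain. Cxcl9, a chemokine for T cells, fell by 2.76 (adjusted p 0.0222), Gbp5, a guanylate-binding protein, fell by 1.74 (adjusted p 0.0204), and Nos2, the inducible nitric oxide synthase, fell by 1.40 (adjusted p 0.0158). Irf1 had a difference of -0.90 (adjusted p 0.0506). None was called in untreated cells (median -0.59) or at 4 h (median -0.54). This list also stood higher on the HET arrays numbered 1, by a median of 0.62 in untreated cells, 0.86 at 2 h and 0.52 at 4 h, and without them 4 of the 15 were called at 2 h. The count was 1 without the 2 h HET array numbered 1, 4 without that numbered 3, 4 without the 2 h KO array numbered 1, 2 without that numbered 2, and 0 when only the 6 arrays at 2 h were fitted. Many genes of this list also respond to type I interferon and to LPS directly. At 4 h Nos2 had risen by 5.92 in KO cells and 6.62 in HET cells, and Iigp1 by 5.08 in KO cells and 5.35 in HET cells.

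**Figure D4:**
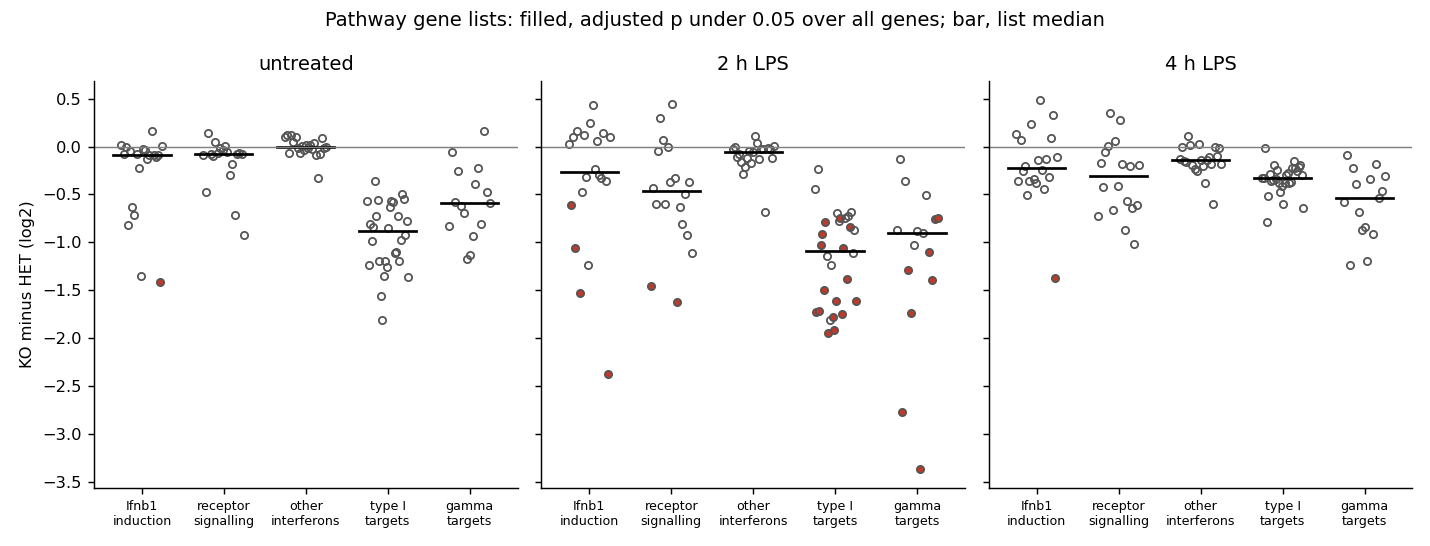
KO minus HET difference in log2 signal (vertical axis) of each measured gene of 5 lists before LPS and after 2 h and 4 h of it, with red points called at an adjusted p under 0.05 over all genes and bars at the list medians. At 2 h the medians are -1.08 for type I interferon targets and -0.90 for interferon gamma targets, and -0.06 for the other interferons and related receptors.

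Across the 18 arrays, the genes whose signal followed that of Ifnb1 most closely, among those whose 6 group means spanned at least 1 log2 unit, were Il1bos (Pearson r 0.923), Gm10791 (0.917), Rsbn1 (0.916), Med21 (0.906), Ppp1r15a (0.897), Ahr (0.891), Gpr85 (0.89) and Mob3c (0.887). These values describe arrays that share LPS times and genotypes, and have no p. Med21, which encodes a subunit of the Mediator complex, averaged 10.01, 10.74 and 10.59 in KO cells at 0 h, 2 h and 4 h, against 9.91, 11.36 and 10.68 in HET cells. Ahr, the aryl hydrocarbon receptor, averaged 7.74, 8.36 and 8.20 in KO cells over the same times, against 8.16, 10.09 and 9.24 in HET cells. Both were highest in HET cells at 2 h, as was Ifnb1, which follows from their selection by likeness to it. Over the 15 arrays without the HET arrays numbered 1, 2 of these 8 genes, Gm10791 and Il1bos, were still among the first 8. Ahr then ranked 10 and Med21 ranked 14. Of the other members, Tyk2 had an r of 0.54 with Ifnb1, Ifnar2 0.53, Ifngr2 0.48, Ifnar1 0.41, Jak1 0.23 and Ifngr1 0.14.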

How the data were processed

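RNA of 18 macrophage samples was measured on Affymetrix gene arrays. The authors deposited log2 signal for each probe set, from RMA in Partek 6.5 per the submitters' processing notes, with settings not given in the sources used here. They were analysed as deposited, with array medians of 8.05 to 8.13. Arrays give no read depth. Of 25344 probe sets, 21137 had a single gene in the platform's table, 1530 had several genes and 2677 had none. The single-gene probe sets gave 19475 genes, and the probe set with the highest mean stood for each of 915 genes with several. Groups were taken from the labels.

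One mean per group was fitted with limma 3.58.1 in R 4.3.3 (12 residual degrees of freedom) for 9 contrasts: KO minus HET at each time, the LPS responses and their differences. Calls were made at an adjusted p (Benjamini-Hochberg, over all genes) under 0.05. The fit was also run on simulated data with independent noise. Those data lacked the correlation of same-numbered arrays, so they do not check the threshold for the arrays used here. Contrasts at 1 time or of 1 genotype share arrays. The members and the 13 gene and marker lists were chosen with earlier results of these data known. Named genes are the members, Wbp7, per list and contrast up to 4 called and 2 other genes with the largest differences, and the 8 genes most like Ifnb1. Ifng, Klrk1 and Mertk were added after their values were seen. Ticam1, Tbk1 and Irf3, of the route from LPS to Ifnb1, were also named outside this rule. Departures from the group means correlated across genes between same-numbered arrays of a genotype (r 0.32 to 0.796, 18 pairs). Between genotypes r was -0.34 to 0.254 at the same time (9 pairs) and -0.353 to 0.39 at different times (18 pairs). The last range overlaps with that within a genotype. The number was read as a pairing within genotype. This is not stated in the labels. The block used duplicateCorrelation (0.398). The alternatives were median centring, quantile normalization, dim genes left out, probe sets averaged per gene, a robust trend, array weights, the arrays of a contrast alone, the replicate number as a block, and arrays left out.

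Sequences are from RefSeq (GRCm38.p6), with 1 promoter for each of the 7 genes. Coordinates are given only for the Ifnb1 stretch. The plots were made in matplotlib 3.10.9 under Python 3.11.15.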

Additional observations from a re-analysis of the deposited data

How the results depend on the processing

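The KO minus HET differences of the receptor and kinase genes that lay near 0 changed sign under some alternatives, none of them called in either direction, and the cause was not tested. With arrays centred on their medians, Ifnar2 in untreated cells was 0.0004. Under quantile normalization, Ifnar1, Ifngr2 and Jak1 at 2 h were 0.0081, 0.0107 and 0.0159, and the response of Jak1 was -0.035 in KO cells at 4 h and -0.0055 in HET cells at 2 h. With array weights, Ifnar1, Ifngr2, Jak1 and Tyk2 at 2 h were 0.0045, 0.058, 0.0123 and 0.034, and Ifnar1 at 4 h was 0.023. Without the 3 HET arrays numbered 1, Ifnar2 untreated was 0.027, Ifnar1 and Ifngr2 at 2 h were 0.0265 and 0.049, and Ifnar1 and Jak1 at 4 h were 0.0253 and 0.0061. With each array left out in turn, these differences ranged from -0.083 to 0.061 for Ifnar2 untreated, from -0.091 to 0.0265, -0.022 to 0.141, -0.0497 to 0.05 and -0.328 to 0.085 for Ifnar1, Ifngr1, Ifngr2 and Tyk2 at 2 h, and from -0.327 to 0.0253, -0.333 to 0.0061 and -0.287 to 0.029 for Ifnar1, Jak1 and Tyk2 at 4 h. Responses that changed sign in the same way ranged from -0.0183 to 0.092 for Ifnar2 in KO cells at 2 h, from -0.013 to 0.134 for Ifngr2 in HET cells at 2 h and from -0.018 to 0.321 for Jak1 in HET cells at 4 h.

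The number of the 6 receptor and kinase genes called depended on the fit. Between genotypes at 4 h it was 1, against 0 with only the arrays of the contrast and 0 to 1 with each array left out. For the response in KO cells at 2 h it was 1, against 4 with array weights, 2 with only the arrays of the contrast, 2 with the replicate block within genotype and 0 to 2 with each array left out. In KO cells at 4 h it was 1, against 2 under quantile normalization or with only the arrays of the contrast, and 3 with array weights, with the replicate block within genotype or without the HET arrays numbered 1. In HET cells at 2 h it was 2, against 1 with array weights, 0 with only the arrays of the contrast or without the HET arrays numbered 1, and 0 to 2 with each array left out. In HET cells at 4 h it was 2, against 5 with the replicate block within genotype and 2 to 4 with each array left out. For the difference in response at 4 h it was 0, against 1 with that block. The replicate block over all arrays changed no count of the 6 by over 1.5 times. Over all genes, the block within genotype called 1422, 5073, 4979 and 10450 genes for the KO responses at 2 h and 4 h and the HET responses at 2 h and 4 h, against 652, 3069, 3033 and 7085 without it.

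Ifnb1 kept its direction at 2 h, with a KO minus HET difference of -2.41 to -1.85 over all alternatives. Its response in HET cells at 4 h was 1.43, against 1.69 without the HET arrays numbered 1. The difference in response was -0.68 at 4 h, against -0.99 with array weights, and -2.22 at 2 h, with -2.42 to -1.86 when each array was left out. Ifnb1 had no value with dim genes left out, since its mean lay below that limit of 7.63. In untreated cells the number of called genes over all alternatives was 0 to 2 for Ifnb1 induction (1 in the fit reported), 0 for receptor signalling (0), 0 to 3 for type I interferon targets (0) and 0 to 1 for interferon gamma targets (0). At 2 h the number of called genes over all alternatives was 1 to 5 for Ifnb1 induction (4 in the fit reported), 0 to 6 for receptor signalling (2), 1 to 19 for type I interferon targets (16) and 0 to 9 for interferon gamma targets (8). At 4 h it was 1 to 2 for Ifnb1 induction (1), 0 to 4 for receptor signalling (0) and 0 for both lists of targets. Of the 8 genes most like Ifnb1, 2 remained among the first 8 without the HET arrays numbered 1. Signal near background limits the values of Ifnb1 in untreated cells.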
